A study of Homo sapiens with 4 samples.

Results

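Hyaluronan is a long, unsulfated sugar polymer of the extracellular matrix, and 10 genes that make it, break it down or bind it at the cell were described here in FT190 cells with and without a hairpin against SMARCA4. The members are the synthases HAS1, HAS2 and HAS3, the breakdown genes CEMIP, CEMIP2, HYAL1, HYAL2 and HYAL3, and the receptors CD44 and HMMR, 10 of 63241 genes in the count table, each found as 1 row by its symbol. HAS2 and CEMIP were chosen by their measured fold change between these same libraries, as large rises, so that change is described and not tested. The other 8 members were taken for their place in the pathway. Of the 10, 8 passed the filter on low counts and 2, HAS1 and HYAL1, did not.

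FT190, a human line labelled as an ovarian epithelial cell, derives from immortalised secretory cells of the fallopian tube. The control group, labelled Ctrl, carried the PLKO vector, and the other group carried an shRNA that targets SMARCA4, an ATPase subunit of SWI/SNF chromatin remodellers, with 2 libraries in each group and the genotype WT for both. The labels name 1 hairpin treatment, SMARCA4_sh1, so effects of losing SMARCA4 and other effects of that hairpin cannot be told apart, and the labels do not say whether replicates were separate cultures. The p-values therefore speak only of library-to-library spread, possibly technical. SMARCA4 itself stood at 171 and 162 counts per 1000000 (CPM) with PLKO and 34 and 36.3 CPM with the hairpin, a log2 fold change of -2.24 (SE 0.052, edgeR quasi-likelihood adjusted p = 1.86e-07).

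Hyaluronan is spun directly through the plasma membrane by the HAS enzymes, which join glucuronic acid and N-acetylglucosamine from their UDP-activated forms. It is cut by CEMIP, CEMIP2 and the hyaluronidases, and the pieces are finished in lysosomes. CD44 is the main receptor that anchors it at the cell surface, and in epithelia and mesothelium a hyaluronan coat is known for its part in migration, hydration and wound repair.

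Total counts per library lay between 27137414 and 33641343. Of the epithelial markers, KRT7, KRT8, KRT18 and PAX8 were present at 57.4 CPM or more in every library, while EPCAM reached at most 0.558 CPM, KRT19 at most 5 counts and CLDN3 at most 6 counts. The 10 epithelial markers summed to 1763 to 1860 CPM with PLKO and 1257 to 1261 CPM with the hairpin, and 5 of 8 tested fell. Of the fibroblast markers 4 of 6 tested fell and of the mesothelial markers 4 of 5 fell and 1, WT1, rose. Over all genes tested, 15.8% fell and 13.8% rose. The 9 fibroblast markers summed to 2455 and 2509 CPM with PLKO and 1852 and 1987 CPM with the hairpin. Most of this was COL1A1, at 1968 and 2004 CPM with PLKO and 1540 and 1663 CPM with the hairpin. LUM stood at 219 and 237 CPM with PLKO and 107.1 and 109.5 CPM with the hairpin. THY1 had 243 and 237 CPM with PLKO and 187.5 and 195.8 CPM with the hairpin. PDGFRB had 22.9 and 28.05 CPM with PLKO and 15.2 and 16.7 CPM with the hairpin. COL1A2, COL3A1 and DCN had at most 10, 8 and 2 counts. The 6 mesothelial markers summed to 50.7 to 54.8 CPM and to 45 to 45.1 CPM, in that order. The 6 immune markers summed to 23.2 to 25.7 CPM, nearly all of it CD68, and the 5 endothelial markers to 0.967 to 1.23 CPM. The part of these shifts in the results below was not tested.

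Promoter windows are shown for CEMIP, CD44 and HMMR, which with HAS2 are the members whose values the results turn on, because they differ in the basal elements next to the start. The table held windows for 9 of the 10 members, and HAS2 was not among them. Bases upstream of the RefSeq start are given 5′ to 3′ on the plus strand of GRCh38.p14, with every match to a searched motif in capitals. They are chr15:80779120-80779352 for CEMIP, chr11:35138921-35139170 for CD44 and chr5:163460382-163460631 for HMMR, and the CEMIP stretch stops short of the RefSeq start, 10 bases into the transcript whose exons were counted.
CEMIP: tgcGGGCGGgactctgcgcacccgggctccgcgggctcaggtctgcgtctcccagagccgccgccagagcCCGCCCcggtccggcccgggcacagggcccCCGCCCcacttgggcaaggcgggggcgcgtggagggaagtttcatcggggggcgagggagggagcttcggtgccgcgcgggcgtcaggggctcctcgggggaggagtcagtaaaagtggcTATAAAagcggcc
CD44: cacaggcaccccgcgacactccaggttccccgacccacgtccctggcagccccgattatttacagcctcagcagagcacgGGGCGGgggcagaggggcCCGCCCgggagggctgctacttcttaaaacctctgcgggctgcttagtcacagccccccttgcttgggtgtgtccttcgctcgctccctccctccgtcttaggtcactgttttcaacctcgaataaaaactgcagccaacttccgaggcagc
HMMR: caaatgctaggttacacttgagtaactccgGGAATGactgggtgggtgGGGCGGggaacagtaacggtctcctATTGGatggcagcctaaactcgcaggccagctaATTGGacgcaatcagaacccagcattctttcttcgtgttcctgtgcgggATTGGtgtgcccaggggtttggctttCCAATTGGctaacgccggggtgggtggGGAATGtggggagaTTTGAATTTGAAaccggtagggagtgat
The motifs searched on both strands were the TATA box TATAAA, the CCAAT box CCAAT, the cell cycle homology region (CHR) TTTGAA, the GC box GGGCGG, the AP-1 site TGANTCA, the TEAD site GGAATG, the STAT site TTCNNNGAA and the NF-kB consensus. In CEMIP the capitals mark 1 TATA box, whose first base lies 30 bases before the RefSeq start, and 3 GC boxes. That TATA box lies across the first base of the counted CEMIP transcript, at 80779343, and so not upstream of that start. In CD44 they mark 2 GC boxes. In HMMR they mark 2 CHR elements, at 28 and 22 bases before the start, 5 CCAAT boxes of which 2 overlap, 2 TEAD sites and 1 GC box. Over 35116 promoter windows of the same 250 bases, a TATA box stood in 10.7%, a CHR element in 13.3%, a CCAAT box in 32.0%, a GC box in 42.6%, a TEAD site in 11.9%, an AP-1 site in 6.57%, a STAT site in 6.57% and the NF-kB consensus in 9.96%. None of the members' windows held a match to the AP-1 or STAT letters. Among the windows not printed, that of HAS1 held a CHR match 30 bases before the start. HYAL2 and HYAL3 held TEAD matches, HYAL3 also an NF-kB match, and HAS1, HAS3, CEMIP2, HYAL1 and HYAL3 held GC boxes. CHR elements and CCAAT boxes are known from promoters of genes that peak in G2 and mitosis. A match here describes letters and not binding, and the motifs were chosen with these windows in view.

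HAS2 (ENSG00000170961.7, chromosome 8, 121612116 to 121641440, minus strand of hg38) is the synthase most often induced by growth factors and cytokines. It stood at 5.15 and 4.37 CPM with PLKO, from 169 and 141 counts, and at 12.2 and 13.3 CPM with the hairpin, from 354 and 367 counts. Both hairpin libraries were well above both PLKO libraries, and the PLKO libraries differed from each other 1.18-fold. The group means were 4.76 ± 0.553 and 12.8 ± 0.761 CPM (SD, n = 2), a fitted log2 fold change of 1.42 (SE 0.116), or 2.68-fold. This rise ranked 72nd among 18781 genes tested, which is a description, since HAS2 was picked for it. In these bulk samples, a change in the number of cells of a type and a change in RNA per cell cannot be told apart.

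HAS3 (ENSG00000103044.11, chromosome 16, 69106257 to 69118719, plus strand) makes shorter hyaluronan chains than HAS2. It stood at 16.4 and 17.1 CPM with PLKO and 18.4 and 18.1 CPM with the hairpin. The hairpin libraries lay just above the PLKO libraries, and the difference did not pass the test (log2 fold change 0.12, SE 0.073, 95% interval -0.04 to 0.29, edgeR quasi-likelihood adjusted p = 0.239). HAS1 had 3 and 5 counts with PLKO and 2 and 1 with the hairpin, so HAS1 was at the limit of detection in both groups and no fold is given.

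The HAS3 row is uncertain because reads were counted on both strands over 1 transcript of 1156 exon bases. By the GENCODE 29 exons of the same transcripts, its last exon of 365 bases (31.6%) lies inside the last exon of CHTF8 on the opposite strand. The 3326-base last exon of another HAS3 transcript is not among the bases counted. CHTF8, a subunit of an alternative clamp loader, had 3071 and 3106 counts with PLKO and 2935 and 2677 with the hairpin. At its mean density, the shared bases would carry 385 and 389 of the 538 and 552 HAS3 counts with PLKO, and 368 and 335 of the 534 and 499 counts with the hairpin. This would leave 153 and 163 counts for HAS3 with PLKO and 166 and 164 with the hairpin. The span of DERPC, with 2967 and 3023 counts with PLKO and 2838 and 2586 with the hairpin, also overlaps that of HAS3. By the GENCODE 29 exons, whose transcript version for DERPC is older than the one counted, DERPC shares 0 exon bases with HAS3. How the reads over this exon divide between the genes was not tested.

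Levels of different synthases can be set side by side only per length. HAS3 stood at 14.5 CPM per kilobase (kb) with PLKO and 15.8 CPM per kb with the hairpin, and HAS2 at 1.12 and 3.01 CPM per kb. HAS2 therefore made up 7.88% and 6.49% of synthase counts per base with PLKO and 15.3% and 16.7% with the hairpin. Without the HAS3 counts that CHTF8's density would give, the same shares were 17.0% and 13.8% with PLKO and 28.4% and 29.5% with the hairpin. HAS3 itself would then stand at 6.15 CPM per kb with PLKO and 7.38 CPM per kb with the hairpin. On both reckonings HAS3 remained the synthase with the higher per-base count. A CHTF8 density over the shared exon above its mean would leave HAS3 lower still, and this order was not tested. The HAS2 share was higher in both hairpin libraries on both reckonings, a difference that follows from the picked rise of HAS2. The design of 2 against 2 libraries cannot take an exact permutation p below 0.33, so the shares were not tested.

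CEMIP (ENSG00000103888.17, chromosome 15, 80779343 to 80951776, plus strand) is a secreted or membrane-associated protein needed for the cutting of hyaluronan by fibroblasts. It had 7.23 and 8.65 CPM with PLKO, from 237 and 279 counts, and 25.4 and 27.7 CPM with the hairpin, from 737 and 765 counts. The groups were far apart, and the PLKO libraries differed from each other 1.2-fold. The means were 7.94 ± 1.00 and 26.6 ± 1.61 CPM (SD, n = 2), a log2 fold change of 1.74 (SE 0.099), or 3.35-fold, ranked 37th among the genes tested. CEMIP was picked for this rise.

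Its paralog CEMIP2 (ENSG00000135048.14, chromosome 9, 71683366 to 71768513, minus strand), a membrane-bound hyaluronidase, stood at 83.5 and 71.2 CPM with PLKO and 76.5 and 76.4 CPM with the hairpin. The hairpin libraries lay between the PLKO libraries, and the log2 fold change was -0.02 (SE 0.069, 95% interval -0.17 to 0.14, edgeR quasi-likelihood adjusted p = 0.879). The value turned with the control used: it was -0.13 without PLKO library 2 and 0.11 without PLKO library 1.

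HYAL2 (ENSG00000068001.14, chromosome 3, 50317790 to 50322782, minus strand), the hyaluronidase held at the cell surface by a lipid anchor, stood at 20.6 and 18.9 CPM with PLKO and 21.7 and 22.3 CPM with the hairpin. Its log2 fold change of 0.15 (SE 0.072, 95% interval -0.01 to 0.32) did not pass the test (edgeR quasi-likelihood adjusted p = 0.149). The value was 0.22 without PLKO library 1 and 0.09 without PLKO library 2. HYAL3 (ENSG00000186792.17, chromosome 3, 50292832 to 50299405, minus strand), a family member of little known activity, stood at 3.32 and 3.63 CPM with PLKO and 2.31 and 2.72 CPM with the hairpin. The HYAL3 groups did not overlap, and the log2 fold change of -0.47 (SE 0.161) missed the threshold (edgeR quasi-likelihood adjusted p = 0.0566). It passed without PLKO library 1 (adjusted p = 0.0206) and with the replicate block (adjusted p = 0.0354).

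HYAL3 counts are uncertain too, since its exons share 43 bases with IFRD2 and 188 bases with NAA80 on the same strand. At the mean density of IFRD2, the shared bases would carry 27.2% and 20.8% of the HYAL3 counts with PLKO and 40.4% and 32.9% with the hairpin. This would leave 79 and 93 counts with PLKO and 40 and 50 with the hairpin. At that of NAA80, they would carry 8.22% to 10.7% over the libraries. How these reads divide between the genes was not tested. HYAL1, the lysosomal hyaluronidase of the same gene cluster, had 2 and 1 counts with PLKO and 2 and 2 with the hairpin, at the limit of detection, so no fold is given.

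Per base, CEMIP2 led the 5 breakdown genes in every library, with 63.4% and 59.8% of their counts with PLKO and 55.2% and 53.5% with the hairpin. CEMIP held 4.67% and 6.19% of them with PLKO and 15.6% and 16.5% with the hairpin, as follows from its picked rise, and HYAL2 held 23.6% to 24.0% throughout. HYAL3 had 8.23% and 9.94% with PLKO and 5.45% and 6.21% with the hairpin. With PLKO the CEMIP level of 1.11 CPM per kb and the HAS2 level of 1.12 CPM per kb lay above those of 16.6% and 16.8% of protein-coding genes tested. Both genes were thus low with PLKO. With the hairpin CEMIP stayed below CEMIP2. HAS2 stayed below HAS3 as counted and with CHTF8 at its mean density, but the true division of the shared reads was not tested.

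CD44 (ENSG00000026508.21, chromosome 11, 35139171 to 35232402, plus strand) binds hyaluronan at the cell surface and links it to the cytoskeleton. It stood at 480 and 450 CPM with PLKO and 702 and 708 CPM with the hairpin. The hairpin libraries agreed within 1.01-fold and lay above both PLKO libraries, which differed 1.06-fold. CD44 rose 1.52-fold (log2 fold change 0.60, SE 0.042, edgeR quasi-likelihood adjusted p = 2.63e-05), from 465 ± 20.6 to 705 ± 4.58 CPM (SD, n = 2). With PLKO its 86.2 CPM per kb exceeded the level of 94.9% of protein-coding genes tested. The counts cover 1 listed transcript, so use of the variable exons of CD44 was not analysed here.

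HMMR (ENSG00000072571.20, chromosome 5, 163460632 to 163491941, plus strand), also called RHAMM, binds hyaluronan outside the cell and the mitotic spindle inside it. It stood at 161 and 158 CPM with PLKO and 224 and 211 CPM with the hairpin, with the groups apart by more than either pair differed. HMMR rose 1.36-fold (log2 fold change 0.44, SE 0.044, edgeR quasi-likelihood adjusted p = 1.42e-04). Antisense genes overlap both receptors, but the whole count of CD44-AS1 came to at most 2.30% of the CD44 count and that of HMMR-AS1 to at most 5.23% of the HMMR count.

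Among the 8 members not picked for a rise, 6 were tested, of which 2, CD44 and HMMR, rose, 0 fell and 4 did not pass. Of all genes tested, 29.7% passed in either direction, 13.8% as higher and 15.8% as lower, and 65.9% had groups free of overlap, as had 5 of these 6 members. Of all calls 46.6% were higher, and 59.5% with library totals in place of scaling factors. By DESeq2 and by limma-voom the count was also 2 higher and 0 lower. Receptor levels per base summed to 143 and 136 CPM per kb with PLKO and 205 and 202 CPM per kb with the hairpin. CD44 made up 62.2% and 61.2% of that sum with PLKO and 63.4% and 65.0% with the hairpin.

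**Figure D1:**
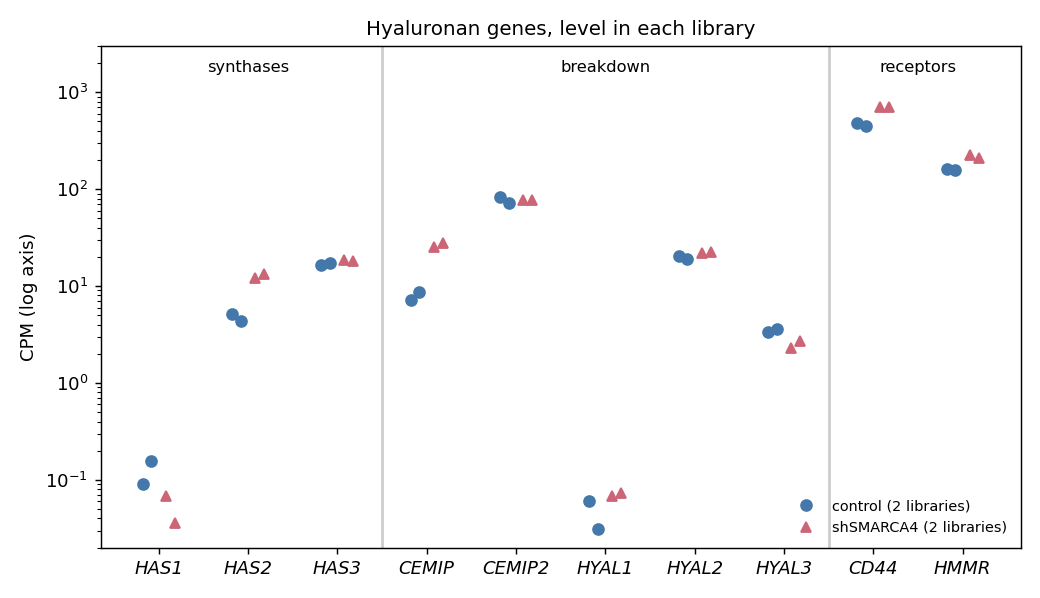
CPM of each of the 10 members on a log axis, with 1 circle per control library and 1 triangle per hairpin library. CEMIP and HAS2 triangles sit well above their circles, CD44 and HMMR triangles slightly above, and HAS1 and HYAL1 rest on 1 to 5 counts per library.

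**Figure D2:**
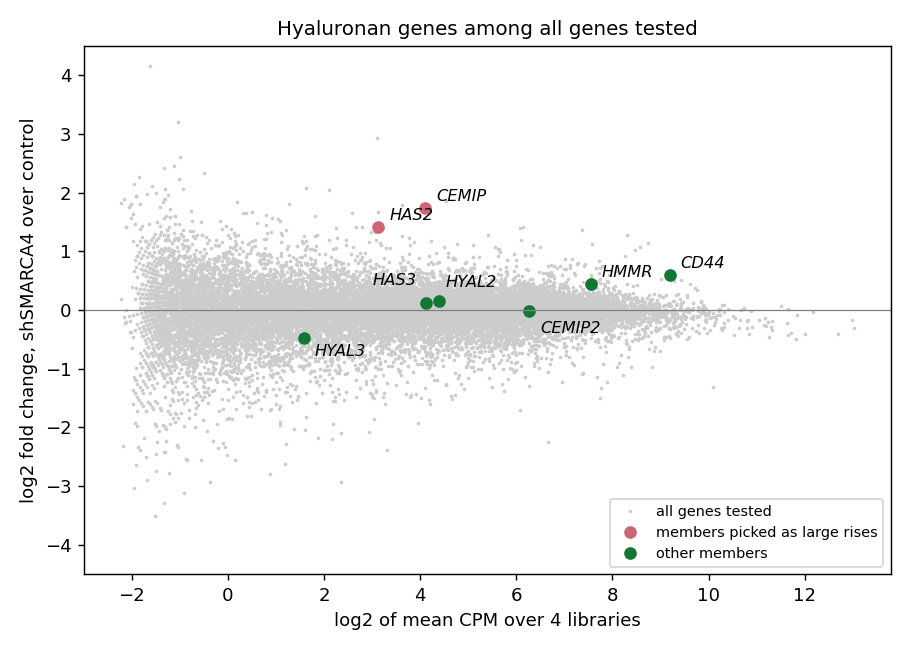
Log2 fold change of shRNA over control libraries against the log2 of the mean CPM, for all 18781 genes tested (grey) and the 8 members tested (coloured). CEMIP (1.74) and HAS2 (1.42), which were picked for their rise, lie at the upper edge of genes of their level, and CD44 (0.60) lies far to the right.

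**Figure D3:**
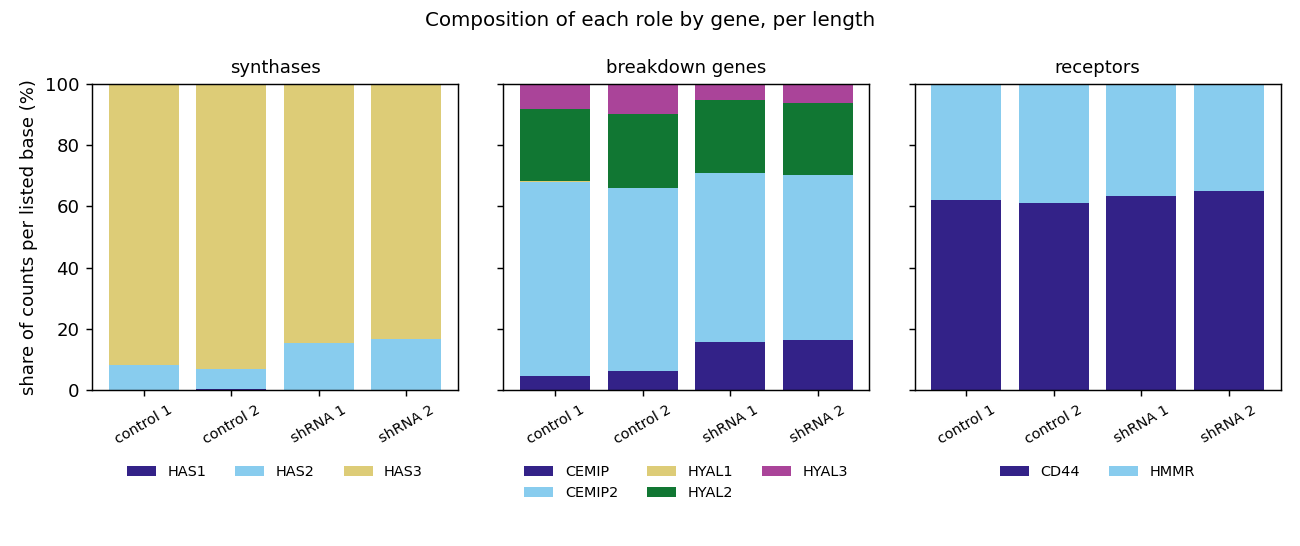
Share in percent of the counts per listed base of synthases, breakdown genes and receptors held by each gene, with 1 bar per library. HAS2 and CEMIP take larger shares in both shRNA bars, while HAS3 and CEMIP2 stay the largest, and the HAS3 share includes the exon shared with CHTF8.

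The enzymes that supply the UDP sugars moved in both directions. Of 14 tested, 3 rose and 6 fell, with a median log2 fold change of -0.13 against 0.00 over all genes tested. For this list and those below, the shares over all genes tested were 13.8% higher and 15.8% lower. GFPT2, an aminotransferase at the committed step to N-acetylglucosamine, went from 30.7 and 34.9 CPM to 65.6 and 68.7 CPM and rose 2.05-fold (log2 fold change 1.03, SE 0.065, edgeR quasi-likelihood adjusted p = 1.55e-05). Its paralog GFPT1 had a log2 fold change of -0.17 (SE 0.053, edgeR quasi-likelihood adjusted p = 0.0380), a fall that was lost with DESeq2 (adjusted p = 0.108), with library totals, when low counts were not filtered, without PLKO library 1 or without hairpin library 1. The later enzymes of that branch, the acetyltransferase GNPNAT1 (0.23, SE 0.048) and the pyrophosphorylase UAP1 (0.43, SE 0.068), rose, and the mutase PGM3 between them stood at -0.03 (SE 0.038, adjusted p = 0.619). The GNPNAT1 rise was lost when low counts were not filtered (adjusted p = 0.0515).

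On the branch to glucuronic acid, PGM1 (-0.39, SE 0.045) and UGP2 (-0.42, SE 0.040), which make glucose 1-phosphate and UDP-glucose, fell. UGP2 went from 131 and 130 CPM with PLKO to 98.3 and 97.4 CPM with the hairpin. UGDH, which oxidises UDP-glucose to UDP-glucuronic acid, had 75.3 and 66.5 CPM with PLKO and 64.9 and 66.5 CPM with the hairpin and did not pass (-0.11, SE 0.062, adjusted p = 0.218). Without PLKO library 2, UGDH stood at -0.20. Upstream of both branches, hexokinase HK1 (-0.33, SE 0.039) fell, and HK2 stood at 0.01 (SE 0.057). The isomerase GPI, on the way to N-acetylglucosamine only, fell (-0.29, SE 0.038). UAP1L1, the paralog of UAP1, fell from 8.41 and 9.86 CPM to 5.00 and 5.80 CPM. Per length, GFPT2 moved from 10.9 to 22.4 CPM per kb, beside 12.4 and 11 CPM per kb for GFPT1.

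Few of the proteins that bind and cross-link hyaluronan in the matrix were expressed. Of 19 such genes, 7 were tested, of which 2 rose and 1 fell, with a median log2 fold change of -0.01. PTX3, a pentraxin that cross-links hyaluronan through inter-alpha-trypsin inhibitor heavy chains, had 25.0 and 22.3 CPM with PLKO and 45.7 and 43.1 CPM with the hairpin and rose 1.88-fold (log2 fold change 0.91, SE 0.069, edgeR quasi-likelihood adjusted p = 3.53e-05). Its usual partner TNFAIP6, which transfers those heavy chains, had at most 2 counts per library, and ACAN and ITIH1 had none. The proteoglycan VCAN, which hyaluronan holds in the matrix, had 357 and 304 CPM with PLKO and 251 and 254 CPM with the hairpin and fell (-0.39, SE 0.067). C1QBP (0.20, SE 0.058), a mitochondrial protein that also binds hyaluronan, rose, a call lost without hairpin library 1 (adjusted p = 0.0562) and when low counts were not filtered (adjusted p = 0.140).

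Of 6 other receptors, 3 were tested, 0 rose and 2 fell. TLR4, an innate immune receptor that responds to hyaluronan fragments, went from 38.4 and 36.5 CPM to 25.0 and 26.0 CPM (-0.56, SE 0.059), and TLR2 from 7.23 and 8.21 CPM to 5.14 and 4.67 CPM (-0.65, SE 0.124). LAYN, the lectin-like receptor layilin, had 54.0 and 41.6 CPM with PLKO and 50.8 and 48.7 CPM with the hairpin, with overlap, and stood at 0.06 (SE 0.102). Without PLKO library 1, LAYN stood at 0.26. LYVE1, the lymphatic receptor, had no counts, which allows up to 3 counts per library by counting error alone.

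Of 6 other genes of breakdown and export, 3 were tested, 0 rose and 1, the transporter ABCC5, fell. ABCC5, proposed as a hyaluronan exporter, went from 25.2 and 25.8 CPM to 15.1 and 15.7 CPM (-0.73, SE 0.068). HEXA and GUSB, lysosomal enzymes that finish hyaluronan, stood at -0.09 (SE 0.057) and -0.07 (SE 0.073), with edgeR quasi-likelihood adjusted p = 0.272 and 0.505. HEXA was at -0.14 without PLKO library 1 and -0.04 without PLKO library 2.

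Of the genes that tether, shed or splice CD44, 12 of 14 were tested, 3 rose and 2 fell, with a median of 0.04. The sheddases ADAM10 (0.25, SE 0.038), ADAM17 (0.27, SE 0.048) and MMP14 (0.21, SE 0.053) rose. EZR (-0.31, SE 0.059) and RDX (-0.17, SE 0.039), linkers of CD44 to actin, fell, and their relative MSN stood at -0.11 (SE 0.037, adjusted p = 0.0567). MSN passed with limma-voom (adjusted p = 0.0319) and with the replicate block (0.0364). Without PLKO library 1 or 2, MSN stood at -0.09 and -0.12. The MMP14 call was lost without hairpin library 2 (adjusted p = 0.0593), and that of RDX without hairpin library 1 or 2 (adjusted p = 0.0894 and 0.140). Both were also lost when low counts were not filtered. Of the splicing factors of the variable exons, KHDRBS1, SRSF1 and TRA2B were abundant, at 308 to 327 CPM, 525 to 551 CPM and 249 to 269 CPM, and were not called (-0.08, 0.00 and -0.07). ESRP1 had at most 4 counts and ESRP2 at most 0.518 CPM. TRA2B was at -0.10 without PLKO library 2.

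The mitotic genes listed beside HMMR moved by small amounts. Of 12 tested, 2 rose and 4 fell, with a median of -0.09, and their sum was 4383 and 4277 CPM with PLKO and 4344 and 4214 CPM with the hairpin. PLK1 (-0.24, SE 0.041), the spindle factor TPX2 (-0.18, SE 0.038), which HMMR binds, AURKA (-0.21, SE 0.047) and KIF11 (-0.12, SE 0.039) fell, and CENPF (0.16, SE 0.038) and MKI67 (0.14, SE 0.043) rose, beside 0.44 for HMMR. Of these 6 calls, that of PLK1 held in every alternative run, and those of TPX2, AURKA, KIF11, CENPF and MKI67 were lost without hairpin library 2. Without hairpin library 1, the calls of TPX2, KIF11, CENPF and MKI67 were lost too. When low counts were not filtered, those of AURKA, KIF11, CENPF and MKI67 were lost, and with DESeq2 those of KIF11 (adjusted p = 0.171) and MKI67 (adjusted p = 0.0760). KIF11 was also lost with RLE factors (adjusted p = 0.0606), upper-quartile factors (0.0559) and library totals (0.181). A difference between HMMR and this list was not tested.

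Signals known to induce HAS2 moved in both directions. Of 15 listed, 12 were tested, 5 rose and 3 fell, with a median of 0.09. The EGF receptor ligands TGFA (0.57, SE 0.093), AREG (0.79, SE 0.158) and EREG (1.19, SE 0.341) rose, as did PDGFA (0.46, SE 0.096) and TGFB1 (0.41, SE 0.079). AREG and EREG were low, at 2.10 and 2.48 CPM and 0.366 and 0.279 CPM with PLKO, and the EREG call was lost without either hairpin library or without PLKO library 2 and when low counts were not filtered. With DESeq2 and with the 1 CPM filter, EREG got no adjusted p and so no call. PDGFB (-1.12, SE 0.125), the receptor PDGFRB (-0.67, SE 0.103) and TGFB2 (-0.61, SE 0.078) fell. EGFR itself stood at 0.09 (SE 0.051) and was not called, but passed with library totals (0.14, edgeR quasi-likelihood adjusted p = 0.0424). Without PLKO library 1, EGFR was at 0.16. IL1B and PTGS2 had at most 7 counts per library and IL1A at most 16.

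**Figure D4:**
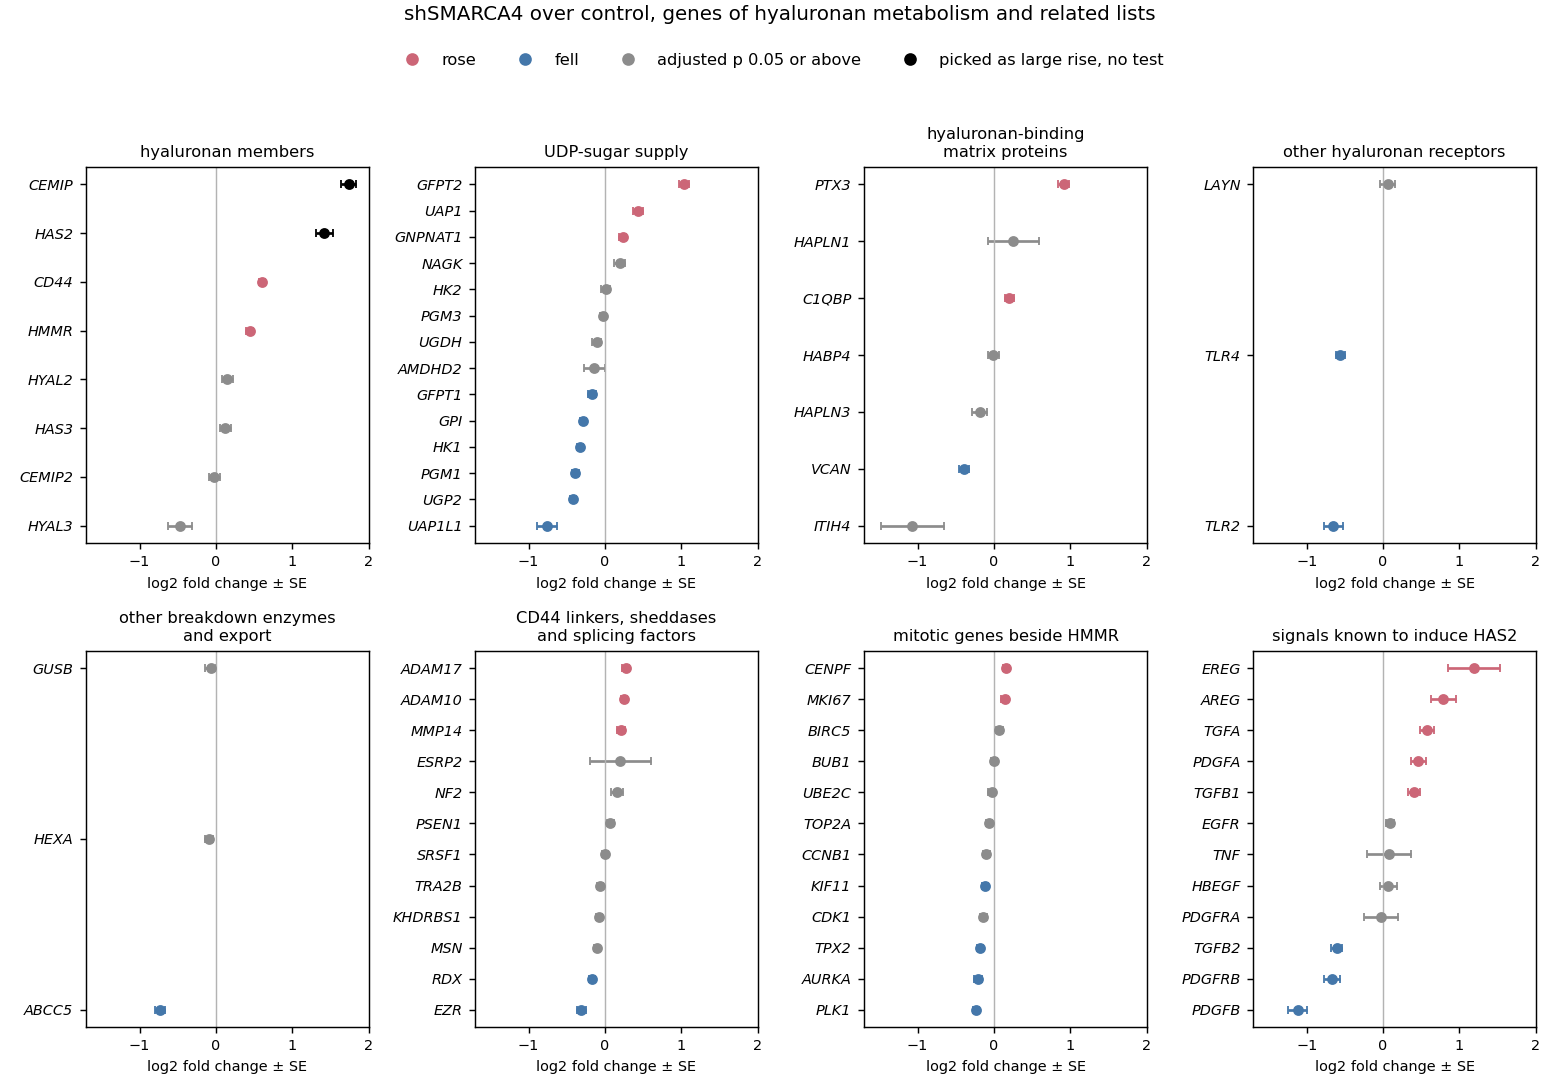
Log2 fold change of shRNA over control libraries for the tested members and for the tested genes of 7 related lists. Points are fitted values, bars are standard errors, and colour gives the call. In the UDP-sugar panel GFPT2 (1.03) is highest and UAP1L1 (-0.76) lowest.

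The genes with profiles nearest to each member were found by the distance between log2 CPM values centred on each gene's mean over the 4 libraries, searching the protein-coding genes whose mean reached 5 CPM. For HAS2 they were SHISA2 (5.21, 4.21, 11.7 and 12.2 CPM in PLKO libraries 1 and 2 and hairpin libraries 1 and 2; distance 0.102), IFIT2 (0.139) and EMP1 (0.218). For CEMIP they were CCL5 (0.159), GBP4 (0.239) and ITGA2 (0.333). CD44 was nearest to TNFRSF21 (0.0237), ITGB8 (0.0297) and ZFP69B (0.0386). HMMR was nearest to DNPH1 (0.0256), MTRR (0.0294) and B3GNT5 (0.0304). HAS3 lay nearest to ARF5 (0.0118), FLCN (0.0133) and GM2A (0.0135), and CEMIP2 to ANKRD33B (0.0125), TMEM70 (0.0192) and CRIM1 (0.0216). HYAL2 lay nearest to FBN1 (0.0089), ZFPL1 (0.0143) and MRPL41 (0.0165), and HYAL3 to DIP2C (0.0383), CASP6 (0.0399) and ATPAF2 (0.043). With 4 libraries, this likeness rests for CD44, HMMR, HAS2 and CEMIP almost wholly on the difference between the groups.

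The lncRNA HAS2-AS1, whose span overlaps that of HAS2 by 121 bases on the opposite strand, had 26 and 19 counts with PLKO and 34 and 48 with the hairpin. Since strand was not used in counting, HAS2-AS1 reads in the overlap cannot be told apart from HAS2 reads. The RNAs MIR549A, ENSG00000259546 and ENSG00000259649, which overlap CEMIP, had at most 0, 12 and 1 counts per library.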

How the data were processed

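RNA-seq counts of 4 libraries were analysed. The counting command in the file header names 6 libraries, while values were given for 4, and no others were analysed here. Values are the raw counts the authors deposited: HOMER analyzeRepeats counted reads over GENCODE 45 exons on hg38, on both strands, with 1 transcript per gene and no normalization, per the file header. Alignment used STAR 2.6.1c, and DESeq2 1.19.38 is also named, per the submitters' processing notes. Groups came from sample titles.

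Genes were kept by filterByExpr (count minimum 10), scaled by trimmed means of M values and tested with edgeR 4.0.16 in R 4.3.3 (glmQLFit, glmQLFTest, two-sided), with Benjamini-Hochberg adjustment over 18781 genes and a threshold of 0.05. CPM is the count per 1000000 of the scaled total. CPM per kb divides by the exon length the authors deposited, given per the file header as another unit, bases. SE is the absolute log2 fold change over the square root of F. The fits were tested on simulated data. Members and lists were chosen with earlier results of these data known. For 1 gene of these lists, results are not reported here. The rule for named genes takes all members and up to 5 genes per list with the smallest adjusted p, and those named beyond it were chosen after their values were seen. Same-numbered libraries were not treated as pairs. Exon overlaps used GENCODE 29 and promoters RefSeq. Alternatives included DESeq2 1.42.0 and limma 3.58.1.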

Additional observations from a re-analysis of the deposited data

How the results depend on the processing

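The rises of CD44 and HMMR held in all 13 alternatives run, with adjusted p of at most 0.00212 and 0.00693, and HAS2 and CEMIP stayed between 1.31 and 1.55 and between 1.62 and 1.88 on the log2 scale. The count of members other than HAS2 and CEMIP past the threshold, 2, ranged from 2 to 4 with 1 library left out, the 4 without PLKO library 1, where HYAL2 and HYAL3 also passed. Over all genes, 5572 passed; this was 3187 with no filter on low counts, 3555 with DESeq2 and 3801 to 7446 with 1 library left out, and 46.6% of calls were higher, against 59.5% with library totals alone. In the other lists 34 of 63 genes tested passed, beside 5572 of 18781 (29.7%) of all genes tested. The 1 CPM filter kept 58 of the list genes, where 33 passed, and 15877 of all genes, where 5566 passed. The lists were not matched to all genes for level, and the difference was not tested. HBEGF, at 0.07 and not called, turned to -0.13 without PLKO library 2 and was 0.32 without PLKO library 1. With the replicate number as a block, 6749 genes, 3 members and 40 genes of the other lists passed. The deviations of same-numbered libraries correlated at 0.0754 with every gene tested weighted alike, which cannot exclude pairing.

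Shares without division by length, with PLKO and with the hairpin, were 22.0% and 41.0% for HAS2, 77.4% and 58.8% for HAS3, 7.37% and 20.8% for CEMIP, 71.1% and 59.9% for CEMIP2, and 74.4% and 76.4% for CD44. Without the HAS3 counts expected from CHTF8, an alternative chosen after seeing the data, mean shares were 15.4% and 28.9% for HAS2 and 83.8% and 70.8% for HAS3. Where leaving out 1 library left 1 in a group, that library was assumed to vary like the others. The PLKO pair varied more than the hairpin pair (chi-square per degree of freedom 6.94 and 1.96). Fits without a PLKO library thus took their spread from the tighter pair, and calls gained there carry little weight. Fits without a hairpin library took theirs from the wider pair. Depth limits HAS1 and HYAL1, and 2 libraries per group limit every test.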
